A study of Mus musculus with 24 samples.

Results

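The lysosomal genes described here were 47 genes that encode lysosomal proteases, glycan-cleaving and lipid-cleaving enzymes, lysosomal membrane proteins, subunits of the lysosomal proton pump, and the transcription factor Tfeb. They were chosen by symbol from a list of lysosomal genes that was drawn up with earlier results of these data known, and no measured value entered the rule. All 47 symbols were found among the 24411 genes of each deposited table. By role they comprised 11 proteases, 14 glycan-cleaving enzymes, 10 lipid enzymes and lipid-handling proteins, 7 membrane proteins, and 5 genes in the group formed by the proton pump and Tfeb.

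Lysosomes are acidic organelles in which proteins, glycans and lipids are broken down. Their hydrolases work at low pH, which is kept by a proton pump whose V1 sector hydrolyses ATP and whose V0 sector carries protons across the membrane. Tfeb is a master regulator of genes for lysosome formation and autophagy. In the brain, microglia are phagocytes with a high lysosomal load, and inherited loss of many of these enzymes causes lysosomal storage disease with neurodegeneration.

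The recipients were aged (20 months) male C57BL/6 mice given 8 intravenous injections of 100 μl over 24 days. For whole hippocampus, 5 mice received saline, 6 received the young blood plasma preparation, and 6 received the young platelet fraction, which was pelleted from plasma of young (3 months) donors and resuspended in saline. For microglia, 3 libraries came from saline-treated mice and 4 from mice given recombinant mouse PF4 (platelet factor 4, a chemokine stored in platelets) at 5 μg/ml. These cells were isolated from dissociated hippocampus with magnetic beads against CD11b, a surface protein that other myeloid cells also carry. Every mouse was aged, so no group shows a young level of these genes. Hippocampal libraries are named below by mouse number and microglial libraries by replicate number.

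Values are normalized counts, that is, reads per gene divided by a size factor for each library. Hippocampal libraries held 6140510 to 10522699 reads in genes, and microglial libraries 19855188 to 36342162. On the first principal component of the hippocampal libraries, computed without the lysosomal genes, 5 of 17 libraries had negative scores (saline mice 7146 and 7152, young plasma mice 7147 and 7150, young platelet fraction mouse 7148). Results that rest on these libraries are given with and without them. The summed level of 11 microglial markers was 617058 to 942012 in the isolated cells and 4188 to 6171 in whole hippocampus. In the isolated cells, Ttr, which encodes the choroid plexus protein transthyretin, was at 197501 in saline replicate 2, 501960.0 in PF4 replicate 2 and 345809 in PF4 replicate 4. It was at 641 to 884 in the other 4 microglial libraries. In whole hippocampus, all 9 oligodendrocyte markers were called higher after both treatments, with medians of 0.52 (young plasma) and 0.62 (young platelet fraction) on the log2 scale. Their summed level was 40309 to 79191 in saline, 51970.3 to 116026 after young plasma and 64029.5 to 102896 after the young platelet fraction, and its part in the values below was not tested. Log2 differences of the microglial markers were below 0 for 11 of 11 after young plasma (median -0.09, none called) and for 9 of 11 after the young platelet fraction (median -0.22), where Siglech and Tmem119 were called lower. Their summed level was 5045 to 6171 in saline, 4476 to 6155 after young plasma and 4188 to 5416 after the young platelet fraction. All 7 ependymal markers were above 0 after both treatments (medians 0.54 and 0.75, none called), and the red cell gene Hba-a1 was called higher after the young platelet fraction. Choroid plexus markers were above 0 for 8 of 10 after young plasma (median 0.22) and 10 of 10 after the young platelet fraction (median 0.32), with none called. Astrocyte markers were below 0 for 6 of 8 and 7 of 8 (both medians -0.06), and Slc1a3 was called lower after the young platelet fraction. The part of these cells in the lysosomal values was likewise not tested. After PF4, 10 of 11 microglial markers were below 0 (median -0.07) and all 9 tested choroid plexus markers above 0 (median 2.08), with none called. Of 10 dissociation stress genes, 9 were below 0 after PF4 (median -0.29, none called). The oligodendrocyte sum was 197434 in PF4 replicate 4 and 4150 to 34299 in the other microglial libraries. The sum of blood myeloid markers was 8394 in PF4 replicate 1 and 606 to 2748 in the others. In bulk tissue, fewer cells of a type and less RNA per cell cannot be told apart.

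Tfeb binds an element that contains the letters TCACGTGA, and these were searched in the promoter windows of the lysosomal genes (RefSeq, GRCm38.p6, 250 bases before to 50 after each start). The motif reads the same on both strands and contains the 6-letter E-box CACGTG. A window was present for 40 of the 47 genes, and 7 of these 40 (17.5%) held the motif, against 1.12% of all 27025 genes with a window. The 6 inner letters alone were in 16 of the 40 windows (40.0%), against 8.09% of all genes. The motif was chosen as one bound by a known regulator of lysosomal genes, so these shares are a description and were not tested. The 7 genes were 2 proteases (Ctsa, Ctsd), the glycan-cleaving enzyme Gla, 2 membrane proteins (Cln3, Mcoln1) and the pump subunits Atp6v0d1 and Atp6v1a. None of the 8 windows of lipid enzymes and lipid-handling proteins held it, nor did the window of Tfeb. The matches in the 7 genes that held the motif are shown with their surroundings, with the motif in capitals and each read 5′ to 3′ along the gene:
Atp6v0d1: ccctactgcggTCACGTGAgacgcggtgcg
Atp6v1a: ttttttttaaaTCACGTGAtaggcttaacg
Cln3: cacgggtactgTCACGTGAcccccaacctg
Ctsa, first match: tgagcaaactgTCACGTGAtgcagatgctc
Ctsa, second match: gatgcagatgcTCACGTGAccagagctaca
Ctsd: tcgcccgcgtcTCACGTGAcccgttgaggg
Gla, first match: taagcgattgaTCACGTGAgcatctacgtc
Gla, second match: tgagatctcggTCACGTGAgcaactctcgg
Mcoln1: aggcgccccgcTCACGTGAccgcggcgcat

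The matches lay close to the start in 3 of these genes. In Atp6v0d1 (chr8:105566050-105566079, minus strand) the motif began 4 bases before the start. In Ctsa (chr2:164833749-164833778 and chr2:164833766-164833795, plus strand) the 2 motifs began 13 bases before and 4 bases after it. In Mcoln1 (chr8:3500462-3500491, plus strand) the distance was 46 bases. Farther upstream were those of Ctsd (99 bases, chr7:142387908-142387937, minus strand), Cln3 (122 bases, chr7:126583340-126583369, minus strand) and Atp6v1a (132 bases, chr16:44139373-44139402, minus strand). The 2 matches of Gla (chrX:134601215-134601244 and chrX:134601182-134601211, minus strand) began 228 and 195 bases before the start. A match is a description of the letters and not a measured binding site.

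Levels were compared as RPM (reads per 1000000 reads in genes) and, between genes, as RPM per kilobase of exon. The 47 genes took 1.09 to 1.32% of the reads of each hippocampal library and 5.23 to 7.20% of the reads of each microglial library. In saline-treated mice, 12 of 46 genes were more than 10 times higher in isolated microglia than in whole hippocampus, 25 were 1 to 10 times higher, and 9 were lower. Of all 14659 genes, 7.87% were more than 10 times higher, which includes 130 with no hippocampal read. The median ratio over the 46 genes was 2.77, and over all genes, that is, the 14659 that averaged 10 or more normalized counts in either sample it was 0.553. The ranges of the 3 microglial and 5 hippocampal libraries did not overlap for 31 genes that were higher and 7 that were lower in microglia. Over all genes the ranges did not overlap for 15.2% that were higher and 46% that were lower. The samples came from separate experiments and the cells were enzymatically dissociated, so no test was made between them.

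**Figure D1:**
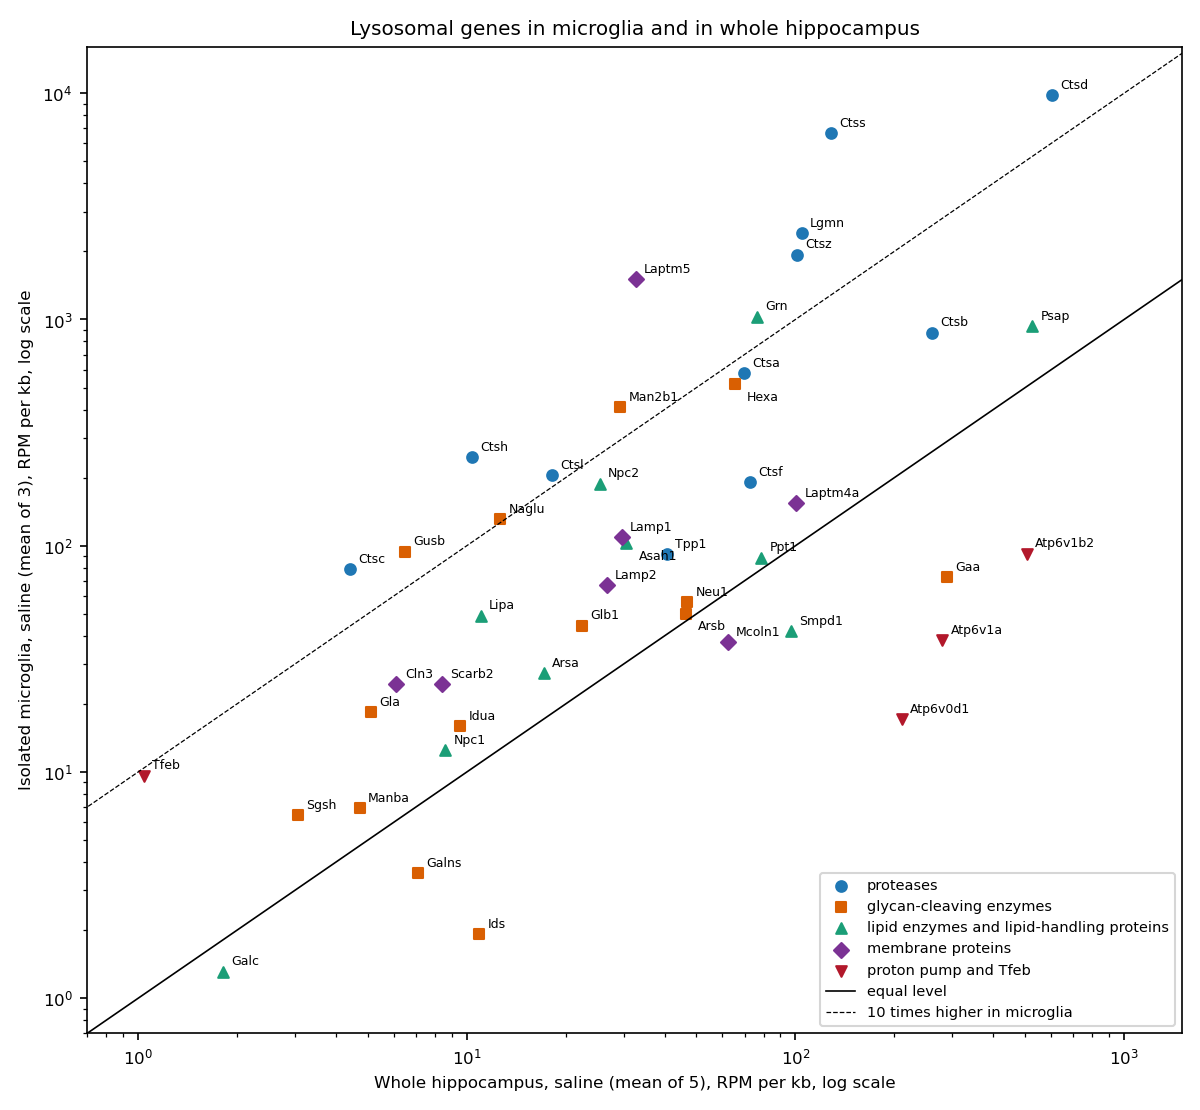
Level of 46 lysosomal genes in isolated microglia (y axis, mean of 3 saline libraries) against whole hippocampus (x axis, mean of 5 saline libraries), both in RPM per kilobase of exon on log scales, with each gene's role as colour and shape. Most proteases lie near or above the dashed line of 10 times higher in microglia, and the 3 expressed proton pump subunits lie below the solid line of equal level.

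Proteases had the highest ratios, with a median of 16.2 and a range of 2.27 to 52.1 over 11 genes. Ctsd encodes cathepsin D, the main aspartic protease of lysosomes. It reached 15317 to 26052 RPM in microglia against 1126 to 1408 in hippocampus. Per kilobase it ranked 3 of 13301 detected genes in microglia and 50 of 17212 in hippocampus. Ctss, the cysteine protease cathepsin S of antigen-presenting cells, had the largest ratio of the 46 genes, at 52.1 (8128 to 9770.1 against 161 to 197 RPM), and ranked 5 in microglia. Legumain (Lgmn), an asparaginyl endopeptidase that processes cathepsins, was 23.1 times higher, and Ctsz and Ctsh were 19.1 and 23.7 times higher. Ctsb, a cathepsin found in most cell types, was 3.35 times higher and was at 1138 to 1312 RPM in hippocampus. Tpp1, the tripeptidyl peptidase lost in a form of Batten disease, had the lowest ratio of the proteases. Ctsd had the highest level per kilobase of the proteases in both samples, and the lowest was that of Ctsc in both.

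Glycan-cleaving enzymes ranged from 0.176 to 14.5, with a median of 1.82. The β-glucuronidase gene Gusb (14.5), the lysosomal α-mannosidase gene Man2b1 (14.0) and the heparan sulfate enzyme gene Naglu (10.4) were more than 10 times higher in microglia. Ids, Gaa and Galns were lower in microglia, with no overlap between libraries. Ids encodes iduronate 2-sulfatase, and its ratio was 0.176 (8.50 to 11.0 against 39.7 to 60.5 RPM). Gaa, acid α-glucosidase, which breaks down glycogen, had a ratio of 0.252, and Galns a ratio of 0.503. Hexa was the most abundant glycan-cleaving enzyme per kilobase in microglia, and Gaa in hippocampus. The lowest were Ids in microglia and Sgsh, the heparan N-sulfatase gene, in hippocampus.

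Lipid enzymes and lipid-handling proteins had a median ratio of 1.68. Grn, which encodes progranulin and was placed in this group although it is not a lipid enzyme, had the highest ratio at 13.4. It also had the highest level per kilobase of the group in microglia. The next highest ratio was that of Npc2, at 7.43. Psap, the precursor of the saposins that assist sphingolipid breakdown, was the most abundant of the group in hippocampus (1403 to 1494 RPM) and had a ratio of 1.77. The acid sphingomyelinase gene Smpd1 was lower in microglia, at 0.434, although its microglial libraries ranged from 30.7 to 178 RPM. Galc, the galactosylceramidase that degrades myelin lipids, was the lowest of the group in both samples.

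Among the membrane proteins, Laptm5 was 46.1 times higher in microglia. It encodes a lysosomal protein of blood-lineage cells. Lamp1 and Lamp2, the most abundant proteins of the lysosomal membrane, had ratios of 3.69 and 2.51. Mcoln1, the calcium channel mucolipin, was the only membrane protein with a ratio under 1 (0.603), and its libraries overlapped between the samples. Laptm5 had the highest level per kilobase of the group in microglia and Laptm4a in hippocampus. Cln3 had the lowest in both, close to Scarb2, which carries glucocerebrosidase to the lysosome, in microglia.

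The expressed proton pump subunits among these genes were on the opposite side, and ratios of other pump subunits are not given here. The V1 subunits Atp6v1a and Atp6v1b2 had ratios of 0.137 and 0.183, and the V0 subunit Atp6v0d1 had a ratio of 0.0815, the lowest of the 46 genes. Atp6v0d1 was at 22.2 to 39.5 RPM in microglia and 268 to 446 in hippocampus. These subunits serve all vacuolar ATPases, including those of synaptic vesicles. The other d subunit gene, Atp6v0d2, known from osteoclasts and macrophages, had 1 read in saline mouse 7146 and none in the other 23 libraries, so it was not tested. Tfeb, grouped with the pump, was instead higher in microglia, with a ratio of 9.24 and no overlap between libraries. It was at 2.66 to 5.70 RPM in hippocampus and 15.7 to 59.4 in microglia. Per kilobase it ranked 11556 of 17212 detected genes in hippocampus and 4243 of 13301 in microglia.

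Within treatment groups, the standard deviation of log2 values in hippocampus had a median of 0.18 over 46 genes and was under 0.2 for 26 of them. Ctsb was the steadiest at 0.08. Lamp1 was the most variable at 0.64 and was the only gene over 0.5. In microglia the median was 0.35, and 10 genes exceeded 0.5. The steadiest gene there was Lamp2 at 0.12. Manba, the β-mannosidase gene, was the most variable at 3.22, since it had 1 read in saline replicate 2 and 801 to 2473 reads in the other 6 libraries.

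The first comparison asked how these genes differed in the hippocampus of aged mice given the young blood plasma preparation relative to saline-treated aged control mice. Of 46 genes tested, 1 passed the threshold (P under 0.05): Arsb, lower. Across all genes 3.35% (456 of 13594) passed, and among the lysosomal genes the share was 2.17%. No gene passed at an adjusted p of 0.05 with limma, edgeR or DESeq2. The median difference of the 46 genes was 0.05 on the log2 scale, with 33 values above 0, against -0.01 over all genes. All 11 proteases had values above 0 (median 0.09), and none passed the test. With 1 library left out at a time, the lowest difference was below 0 for Ctsc (-0.06), Ctss (-0.05) and Tpp1 (-0.04). It stayed above 0 for the other proteases. Without the 5 libraries with negative component scores, the median of the 46 genes was 0.00 (-0.0048), with 22 values above 0. A separate count of the proteases without these libraries is not given here. The 95% interval of the difference lay within 1.5-fold in either direction for 42 of the 46 genes.

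Arsb encodes arylsulfatase B, which removes sulfate from dermatan and chondroitin sulfate (chr13:93771630-93943016, GRCm38). Its normalized counts were 1248, 1448, 1519, 1398 and 1281 in the saline mice, and 1112, 1201 and 1334 (lowest, median and highest) in the 6 young plasma mice. The groups overlapped, with 4 of 6 young plasma mice below every saline mouse. The means were 1379 ± 113 (SD, n = 5) and 1214 ± 88.8 (SD, n = 6). The log2 difference was -0.18 ± 0.08 (SE; limma P = 0.0348, adjusted p = 1.00; two-sided exact permutation p = 0.0303). The call was lost without saline mouse 7146, 7152 or 7155 or young plasma mouse 7144, 7147, 7156 or 7594 (differences of -0.18 to -0.15), and without the 5 libraries that stood apart, where the difference was -0.14.

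Next in order came Gusb, at 217, 150.2, 182, 170.2 and 180.1 in the saline mice and 175, 217 and 241 (lowest, median and highest) after young plasma. Its log2 difference was 0.25 ± 0.12 (SE; limma P = 0.0566; exact permutation p = 0.0563). Ctsf, a cathepsin lost in a form of Batten disease, differed by 0.13 ± 0.07 (SE; limma P = 0.0797; exact permutation p = 0.0476), and Atp6v1a by -0.16 ± 0.09 (SE; limma P = 0.0887; exact permutation p = 0.11). None of the 3 passed the limma threshold. Their intervals ran from -0.01 to 0.50 for Gusb, from -0.02 to 0.29 for Ctsf and from -0.35 to 0.03 for Atp6v1a.

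**Figure D2:**
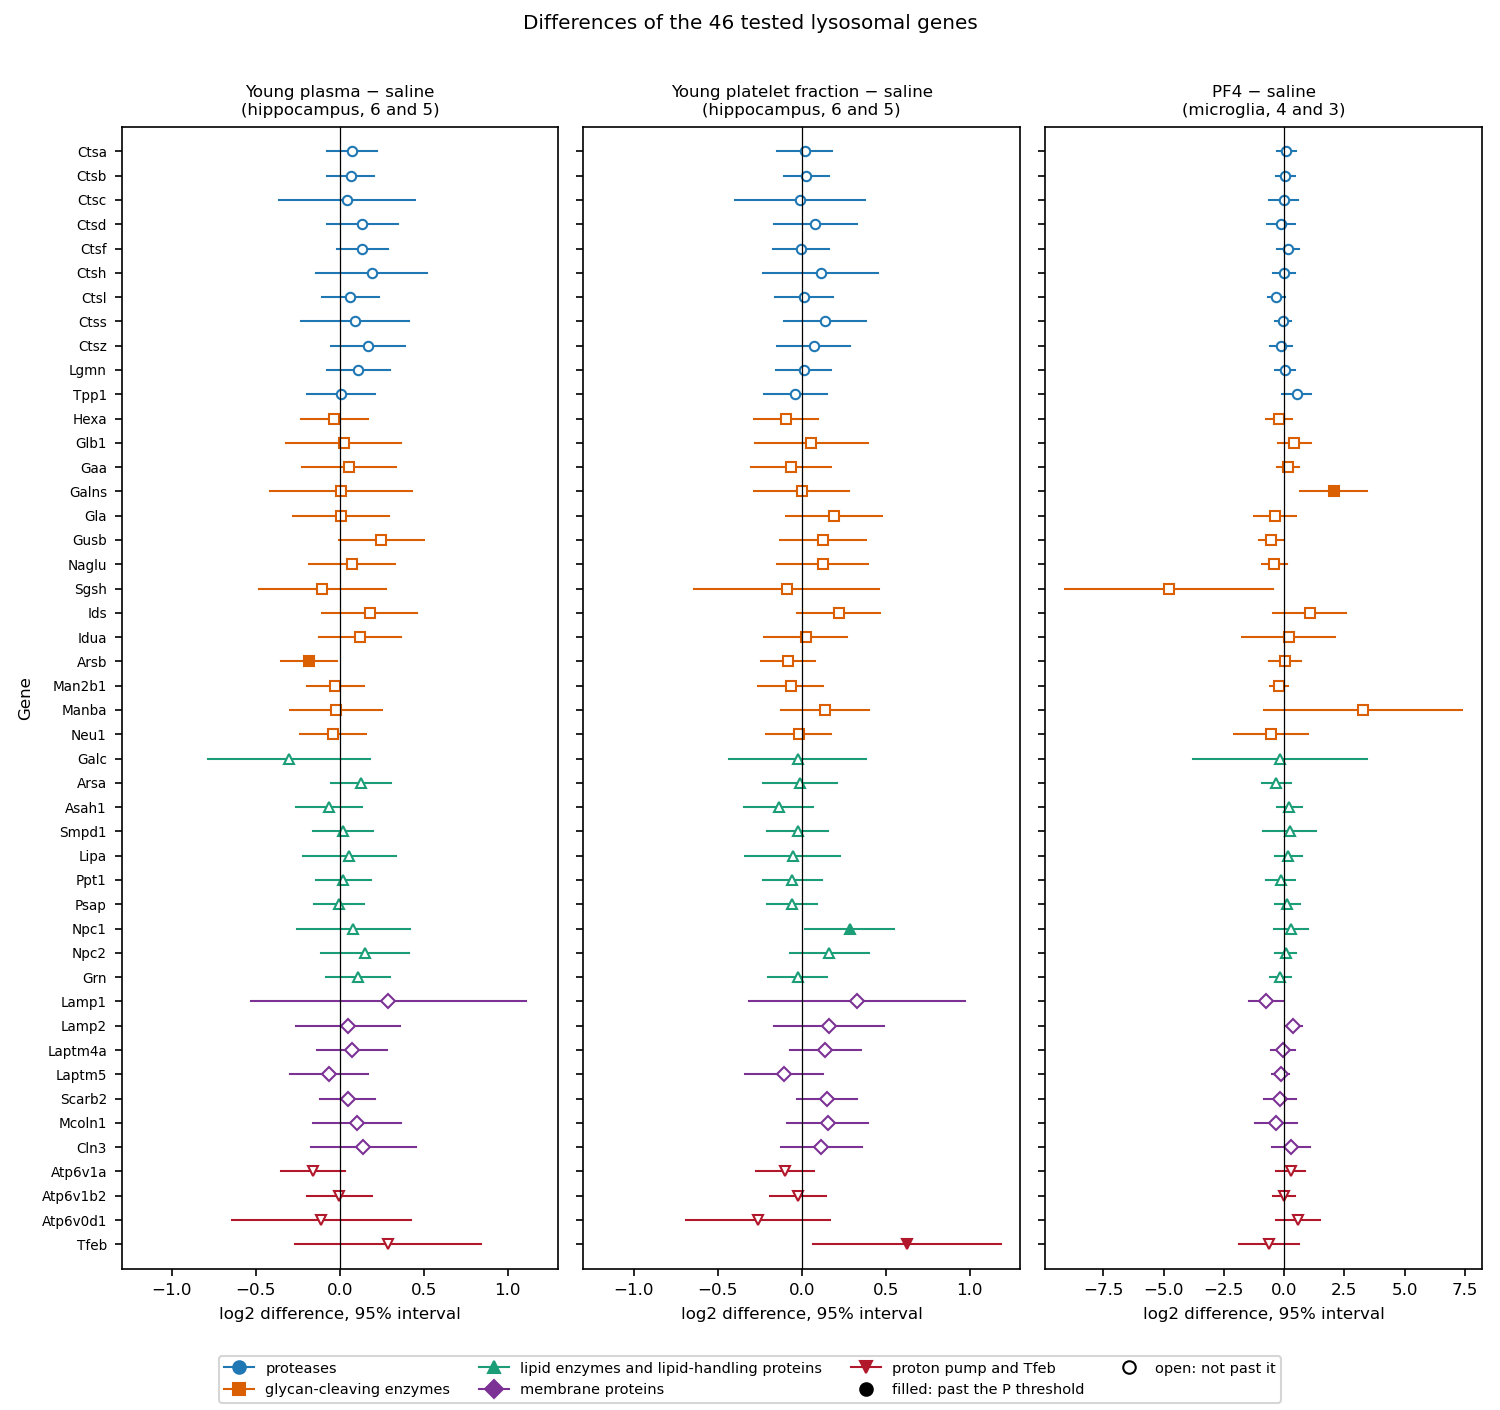
Log2 difference (x axis) of each of 46 lysosomal genes (y axis) with its 95% interval from limma, in hippocampus (each of the 2 young blood treatments against saline) and in microglia (PF4 against saline), with filled points past the threshold (P under 0.05 in hippocampus, under 0.01 in microglia). The filled points are Arsb after young plasma, Npc1 and Tfeb after the young platelet fraction and Galns after PF4, and the microglial panel has a wider axis.

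The young platelet fraction was compared with the same 5 saline mice, so the comparisons share their controls. Of 46 genes, 2 passed (P under 0.05), Tfeb and Npc1, and both were higher. This is 4.35% of the lysosomal genes, beside 3.87% of all genes (527 of 13603). The median difference was 0.01, with 24 values above 0, against 0.00 (0.0021) over all genes. By role, 6 of 7 membrane proteins and 8 of 11 proteases had values above 0, and 8 of 10 lipid enzymes and lipid-handling proteins had values below 0. No lysosomal gene passed at an adjusted p of 0.05 with limma, edgeR or DESeq2 (smallest limma value 0.998). Over all genes, DESeq2 called 11 at that threshold and limma and edgeR none.

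Tfeb (chr17:47737030-47792419, GRCm38) was at 34.3, 19.5, 25.7, 41.3 and 34.0 in the saline mice. After the young platelet fraction the lowest, median and highest were 25.1, 48.5 and 67.8, and 5 of 6 mice were above every saline mouse. The means were 31.0 ± 8.49 (SD, n = 5) and 48.9 ± 14.4 (SD, n = 6). The log2 difference was 0.63 ± 0.26 (SE; limma P = 0.0312, adjusted p = 0.998; exact permutation p = 0.0563), and its interval was wide, from 0.07 to 1.19. After young plasma the difference of Tfeb from the same saline mice was 0.29 ± 0.26 (SE; limma P = 0.285; exact permutation p = 0.284). The highest young platelet fraction value was that of mouse 7148, and the lowest saline values were those of mice 7146 and 7152. All 3 had negative component scores, and without the 5 such libraries the difference was 0.25 and no longer passed. The call was also lost without saline mouse 7146 or 7152 or young platelet fraction mouse 7148, 7157 or 7595, with differences of 0.48 to 0.60.

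Npc1 encodes the transporter that moves cholesterol out of lysosomes. It was at 417, 269.6, 266, 367 and 344 in the saline mice and at 356, 412 and 432 (lowest, median and highest) after the young platelet fraction. The groups overlapped, with 2 of 6 treated mice above every saline mouse. The log2 difference was 0.28 ± 0.12 (SE; limma P = 0.0378, adjusted p = 0.998; exact permutation p = 0.0541). The lowest Npc1 values in each group were those of libraries with negative component scores, at 253 to 354 against 342 to 444 in the other 12 libraries. Without those 5 libraries the difference was 0.13 and did not pass. The call was also lost without saline mouse 7146 or 7152 or young platelet fraction mouse 7145, 7151, 7157 or 7595 (differences of 0.21 to 0.28), and with edgeR (0.27). Npc2, the soluble partner that hands cholesterol to Npc1, differed by 0.16 ± 0.11 (SE; limma P = 0.16; exact permutation p = 0.182).

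Ids and Scarb2 followed. Ids differed by 0.22 ± 0.11 (SE; limma P = 0.0769; exact permutation p = 0.0671), and Scarb2 by 0.15 ± 0.08 (SE; limma P = 0.0957; exact permutation p = 0.0195). Scarb2 was at 274 to 300.2 in the saline mice and 294 to 367 after the young platelet fraction, and 5 of 6 treated mice were above every saline mouse. Without the 5 libraries that stood apart, a different gene, Laptm4a, was past the threshold, with a difference of 0.26. It encodes a small membrane protein of late endosomes and lysosomes.

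**Figure D3:**
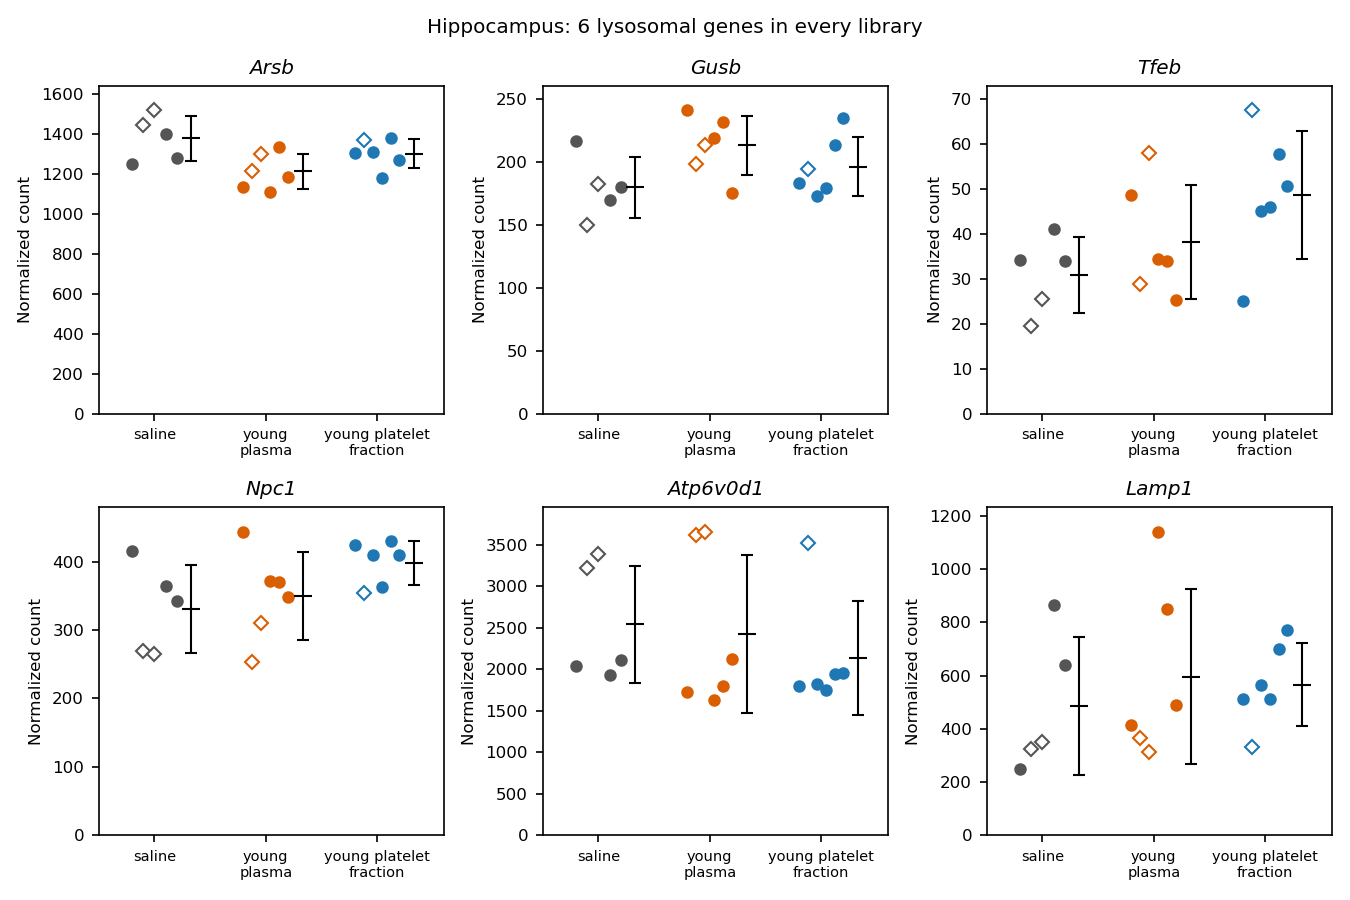
Normalized counts (y axis, from 0) of 6 lysosomal genes in each hippocampal library by treatment (x axis), on the scale of the table for young plasma, with open diamonds for the 5 libraries with negative component scores and bars for the mean and SD. The open diamonds are the 5 highest values of Atp6v0d1 (3218 to 3659), and Npc1 is lowest in them within each treatment.

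The young platelet fraction and young plasma were also compared directly, with the platelet table rescaled to the plasma table by the saline libraries that both hold. Of 46 genes, 0 passed with limma or edgeR at P under 0.05, and 1, Ctsf, passed with DESeq2. Across all genes, limma called 1.90% (260 of 13693). Ctsf was at 1086, 1166 and 1232 (lowest, median and highest) after young plasma and at 982, 1040.1 and 1179 after the young platelet fraction, a log2 difference of -0.14 ± 0.07 (SE; limma P = 0.0618; exact permutation p = 0.0325). Of the genes called against saline, Npc1 differed by 0.21 (exact permutation p = 0.119), Arsb by 0.10 (exact permutation p = 0.0909) and Tfeb by 0.34 (exact permutation p = 0.216). Their intervals ran from -0.05 to 0.46 for Npc1, from -0.04 to 0.25 for Arsb and from -0.20 to 0.88 for Tfeb. For 26 of 46 genes the interval lay within 1.25-fold in either direction.

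Atp6v0d1 and Lamp1 varied between hippocampal libraries across all treatments, a pattern seen after their values were known. Atp6v0d1 was at 3218 and 3393 in saline mice 7146 and 7152, at 3616 and 3659 in young plasma mice 7147 and 7150, and at 3526 in young platelet fraction mouse 7148. In the other 12 libraries it was at 1625 to 2124, so no value lay between 2124 and 3218. The high libraries were the 5 with negative component scores (-46.5 to -25.4, against positive scores in the others). Lamp1 was at 314 to 364 in those 5 and at 249 to 1141 in the other 12. Neither gene passed in a comparison of treatments with all libraries. For Atp6v0d1 the log2 differences from saline were -0.11 ± 0.25 (young plasma) and -0.26 ± 0.20 (young platelet fraction), and the latter was -0.41 and past the threshold without young platelet fraction mouse 7148. For Lamp1 they were 0.29 ± 0.38 and 0.33 ± 0.30, and with 1 library left out at a time the latter ranged from 0.13 to 0.58, past the threshold without saline mouse 7155 (0.58).

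In microglia the comparison asked how these genes differed after systemic PF4 relative to saline. Of 46 genes, 1 passed the threshold (P under 0.01), Galns, and it was higher. This is 2.17% of the lysosomal genes beside 0.389% of all genes (44 of 11320), a count of a single gene. The median difference was 0.00 (-0.0028), with 22 values above 0, against 0.03 over all genes. The interval lay within 1.5-fold in either direction for 10 of 46 genes and within 2-fold for 29. No lysosomal gene passed at an adjusted p of 0.05 with limma, edgeR or DESeq2 (smallest limma value 0.982). Over all genes, DESeq2 called 41 at that threshold and limma and edgeR none.

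Galns encodes the sulfatase that acts on N-acetylgalactosamine 6-sulfate in keratan and chondroitin sulfate (chr8:122578242-122611463, GRCm38). Its normalized counts were 215, 288 and 199 in the saline libraries and 1629, 1582, 689.7 and 479 in the PF4 libraries. The groups did not overlap, and the means were 234 ± 47.2 (SD, n = 3) and 1095 ± 596 (SD, n = 4). The log2 difference was 2.05 ± 0.62 (SE; limma P = 0.0083, adjusted p = 0.982; exact permutation p = 0.0571, where 0.0286 is the smallest this design allows). PF4 replicates 1 and 2 were higher than replicates 3 and 4. Replicates 1 and 2 also had higher endothelial sums (46211 and 34795, against 11438 and 6542). Their microglial marker sums were lower (668611 and 629926, against 942012 and 780739). Saline replicate 2 had an endothelial sum of 53199 with Galns at 215, and the part of cell content in Galns was not tested. The call was lost without any 1 library other than PF4 replicate 4, with differences of 1.80 to 2.39, and without the 3 libraries high in Ttr, with a difference of 2.14. Galns overlaps another annotated protein-coding gene, Gm20388, and the counting may split reads between them. In hippocampus it was at 113 to 183 in saline, 94.2 to 219 after young plasma and 126 to 150.5 after the young platelet fraction.

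Sgsh, which removes sulfate from heparan sulfate, was at 571, 850.4 and 742 in the saline libraries and at 0.761, 4.82, 203 and 224 in the PF4 libraries. Behind the low values were 1 and 5 reads. Sgsh did not overlap between the groups either, yet the spread within the PF4 group was large and the difference of -4.76 ± 1.93 on the log2 scale (SE) was at limma P = 0.0339, above the threshold (exact permutation p = 0.0857).

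**Figure D4:**
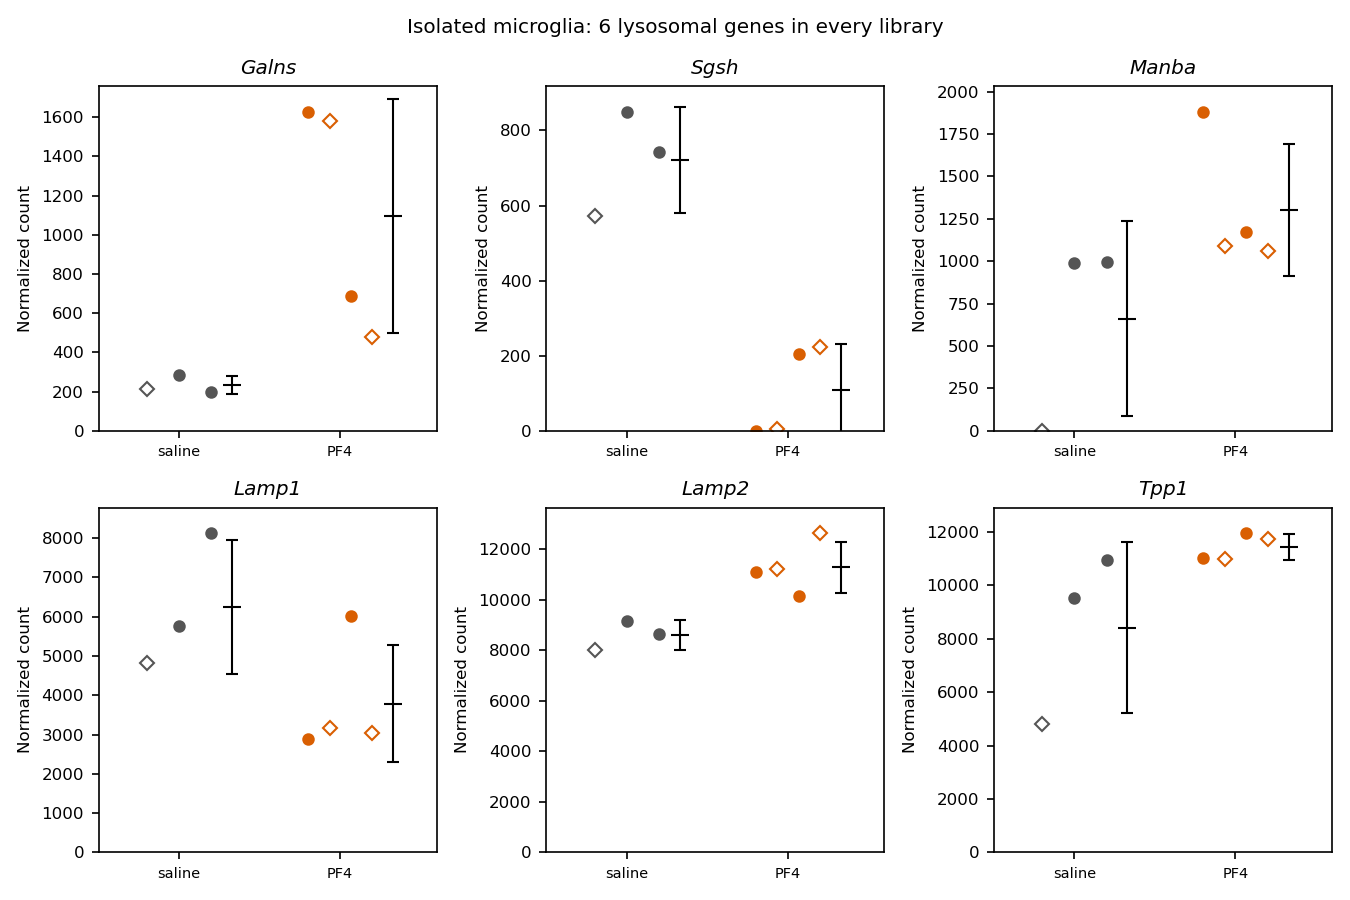
Normalized counts (y axis, from 0) of 6 lysosomal genes in each microglial library by treatment (x axis), with open diamonds for the 3 libraries high in Ttr and bars for the mean and SD (3 saline, 4 PF4). Galns, Manba, Lamp2 and Tpp1 are higher in every PF4 library than in any saline library, Sgsh is lower in every one, and Lamp1 overlaps through PF4 replicate 3 (6020.3).

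The 2 major membrane glycoproteins had values on opposite sides of 0. Lamp1 was at 4810.3, 5769 and 8127 in the saline libraries and at 2894, 3174, 6020.3 and 3046 in the PF4 libraries, a log2 difference of -0.76 ± 0.31 (SE; limma P = 0.0346; exact permutation p = 0.114). Without PF4 replicate 3 the difference of Lamp1 was -1.003 and past the threshold. Lamp2 was at 8002, 9154 and 8663 in the saline libraries and at 11085, 11237, 10168 and 12646 in the PF4 libraries, with no overlap. Its log2 difference was 0.39 ± 0.16 (SE; limma P = 0.0396; exact permutation p = 0.0286, the smallest this design allows), and DESeq2 placed it past the threshold. Lamp1 also overlaps another protein-coding gene, Grtp1. Other lysosomal genes do so too, among them Npc1 (Rmc1), Sgsh (Card14), Ctsd (Gm49369), Ctsb (Fdft1), Grn (Fam171a2) and Cln3 (Apobr). Overlap here is of whole gene spans, without regard to strand or shared exons. Reads may be split between such genes, but whether they are, for these genes or for Galns, was not tested.

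Altogether 6 of 46 genes (13.0%) did not overlap between saline and PF4 libraries, 4 higher (Galns, Lamp2, Tpp1, Manba) and 2 lower (Sgsh, Ctsl), beside 4.62% of all genes (523 of 11320). For Tpp1 and Manba the size of the difference rested on a low saline replicate 2. Tpp1 was at 4809 in that library against 9516 and 10945 in the other saline libraries and 11005 to 11961 with PF4. Without saline replicate 2 its difference was 0.16, and that of Manba was 0.35. Ctsl, a cathepsin with broad specificity, was at 30802 to 33882 in saline and 22062 to 30400.0 with PF4 (-0.32 ± 0.16, SE; limma P = 0.067; exact permutation p = 0.0571). The abundant proteases had values near 0, with Ctsd at -0.12 ± 0.26, Ctss at -0.06 ± 0.15 and Ctsb at 0.05 ± 0.17 (SE).

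Saline replicate 2 had the lowest value of its group for 31 of 46 lysosomal genes, while it was lowest for 40.9% of all genes. It was also 1 of the 3 libraries high in Ttr, it had the highest summed level of the 6 endothelial markers (53199, against 6542 to 46211 in the other libraries), and its microglial marker sum was the lowest of the 7. Lysosomal genes took the smallest share of reads there (5.23%). In the PF4 group the share was 5.42 to 7.18%. The part of other cell types in the differences after PF4 was not tested.

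The 7 genes with a TCACGTGA match were not called in any comparison. Their log2 differences ranged from -0.16 to 0.14 after young plasma, from -0.26 to 0.19 after the young platelet fraction and from -0.40 to 0.58 after PF4. The smallest of their P values was 0.0887, that of Atp6v1a after young plasma. Of the called genes, the windows of Arsb and Tfeb held no match, and windows of Npc1 and Galns were not used here.

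Related genes outside the 47 were counted in 5 lists (other lysosomal enzymes and membrane proteins, sorting to the lysosome, other pump subunits, autophagy, and Tfeb relatives and mTORC1 regulators). After young plasma, of 16 Tfeb relatives and regulators of mTORC1 at the lysosome, 1 was called lower, Rraga (a Rag GTPase that recruits mTORC1, -0.18 ± 0.08, SE; limma P = 0.0348; exact permutation p = 0.00866). None of 12 genes for sorting to the lysosome, 16 other tested pump subunits or 16 autophagy genes was called. After the young platelet fraction none of the 90 tested genes of these lists was called, and after PF4 none of 88. Between the young platelet fraction and young plasma 1 was called, Pla2g15 (lysosomal phospholipase A2, -0.20 ± 0.08, SE; limma P = 0.0267; exact permutation p = 0.00866). The median of the sorting genes after PF4 was 0.35, with 8 of 12 values above 0, and that of the other pump subunits was 0.04.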

How the data were processed

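RNA-seq was measured in 17 hippocampal and 7 microglial libraries. Per the study's methods and labels, the authors aligned reads with STAR to the mm10 transcriptome, counted genes with RSEM and scaled with DESeq2. The methods describe a Smart-Seq2 protocol and the labels a strand-specific kit, so strand use in counting is not settled. The deposited values are a normalized signal (reads divided by a size factor), and 100% of them were whole multiples of 1 read (tolerance 0.01), so reads were recovered. Columns of fold changes and p-values in the deposited tables were not used.

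The main test was limma 3.58.1 (R 4.3.3) on log2(normalized count + 1), with genes kept at 10 or more in at least 5 (hippocampus) or 3 (microglia) libraries. Fold changes on this scale understate those of low genes. The thresholds were those of the study (P under 0.05 and 0.01), with Benjamini-Hochberg adjustment over all genes tested. Single genes also had two-sided exact permutation tests on mean log2 values. edgeR 4.0.16 (quasi-likelihood) and DESeq2 1.42.0 on recovered reads were alternatives. The fit was tested on simulated data. Lengths and gene positions came from GENCODE M21 (GRCm38). The members, lists and tests were chosen with earlier results of these data known. Genes named with full statistics were those past a threshold, or else the 4 with the smallest P, and the highest and lowest per role. P values measure the spread between the mice sampled. Microglial libraries are numbered in the labels, and the study gives them as separate mice. The count of other lysosomal enzymes and membrane proteins after young plasma is not reported here.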

Additional observations from a re-analysis of the deposited data

Results flagged for a closer look

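Of 184 groups of 4 to 6 libraries (46 genes in each of 4 groups), 13 held a library whose gap to its nearest neighbour was large for the group's range (Dixon's criterion), and chance gives about 1 in 20. Saline mouse 7152 was low for Glb1, β-galactosidase (313, next 412), and Scarb2 (272, next 291) and high for Galns (183, next 128). Young plasma mouse 7150 was high for Ctss (2186, next 1375) and for Ppt1, palmitoyl-protein thioesterase (2298, next 2027). Young plasma mouse 7147 was high for Lipa, lysosomal acid lipase (319, next 252). Young platelet fraction mouse 7148 was high for Atp6v0d1 (3526, next 1951) and Atp6v1b2 (11982, next 10399). These 4 mice are among the 5 with negative component scores. Young platelet fraction mouse 7145 was low for Lgmn (1299.8, next 1593), and mouse 7157 was high for Galns (150.5, next 132). In microglia, PF4 replicate 1 was high for Manba (1882, next 1170.2), PF4 replicate 3 was high for Lamp1 (6020.3, next 3174), and PF4 replicate 2 was low for Atp6v0d1 (871, next 1075).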

How the results depend on the processing

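With 5 or 6 mice per group, most hippocampal intervals exclude changes over 1.5-fold, and the microglial groups of 3 and 4 leave wider limits. Levels near 1 to 5 reads, as for Sgsh and Manba in single libraries, set the largest differences. Differences near 0 changed sign under some alternatives. With 1 library left out at a time, Atp6v0d1 after young plasma ranged from -0.25 to 0.0041, and after PF4 Ctsd ranged from -0.35 to 0.072, Ctss from -0.16 to 0.011 and Ctsb from -0.068 to 0.16. Without the 5 libraries standing apart, Tfeb after young plasma was at -0.065, and without the 3 libraries high in Ttr, Ctsb after PF4 was at -0.071. Ctsc, Ctss and Tpp1 after young plasma also changed sign with 1 library left out at a time. The other single-gene differences given in the text kept their sign.

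For young plasma against saline, the members called higher (0) became 1 with all 3 hippocampal groups in one fit (Gusb) and 2 with library totals (Ctsf, Gusb). Without the 5 libraries standing apart, the members called lower (1) became 0 and the genes called (456) became 300. For the young platelet fraction against saline, the members called higher (2) became 1 in the single fit and with edgeR (Tfeb), with a filter at 50 (Npc1) and without the libraries standing apart (Laptm4a). For PF4 against saline, DESeq2 called 179 genes and 2 members higher (Galns, Lamp2). Without the 3 libraries high in Ttr, 9 genes and 0 members were called. That fit held only saline replicates 3 and 4 and PF4 replicates 1 and 3, so it had less power. The part of choroid plexus RNA in these counts was not tested. For the young platelet fraction against young plasma, DESeq2 and library totals each called 1 member lower (Ctsf), and with no filter 473 genes were called. TMM scaling over both tissues raised the median ratio of microglia to hippocampus from 2.77 to 3.96, with 16 genes above 10 and 9 below 1. The share of windows with a match was 40.0% for the inner 6 letters.

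Leaving out 1 library at a time, genes called ranged from 297 to 617 (young plasma), 344 to 870 (young platelet fraction), 22 to 123 (PF4) and 206 to 441 (young platelet fraction against young plasma). Members called higher ranged from 0 to 2, 0 to 3, 0 to 1 and 0 to 1, and members called lower from 0 to 1, 0 to 1, 0 to 1 and 0 to 2, in the same order. Their median ranged from 0.04 to 0.08, -0.01 to 0.03, -0.12 to 0.09 and -0.06 to -0.01. The median ratio between tissues ranged from 2.66 to 2.90, with 11 to 13 members above 10-fold and 8 to 10 below 1.

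Microglial replicates 2 to 4 carry the same numbers in both groups. The deviations of same-numbered libraries correlated at 0.14, 0.06 and 0.03 over all genes, and the main test did not take the numbers as pairs. The endothelial sum fell with replicate number in both groups. It was 53199, 16768 and 8120 in saline replicates 2 to 4, and 46211, 34795, 11438 and 6542 in PF4 replicates 1 to 4. The correlations cannot show whether the numbers mark a shared order of preparation, which was not tested. With the replicate number as a block, 29 genes and 0 members were called, and the difference of Galns was 1.80. The causes of these shifts were not tested.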

Other observations

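Among the hippocampal libraries, young platelet fraction mouse 7154 had the highest value of its group for 16 of 46 lysosomal genes, while it was highest for 12.5% of all genes. Its summed level of 10 choroid plexus markers (97042) was the highest of the 17 libraries. Its Lamp2 was 1455, its Npc2 896 and its Ctsd 12604, each the highest of the 17. Young plasma mouse 7594 was the lowest of its group for 18 of 46 lysosomal genes, against 15.0% of all genes, and had a choroid plexus sum of 10710.4, the second lowest of its group. The lowest choroid plexus sum of that group was that of young plasma mouse 7150 (7460). Yet mouse 7150 was the highest of the group for 15 of 46 lysosomal genes, against 22.3% of all genes. The part of choroid plexus RNA in these levels was not tested.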
